A study of Homo sapiens with 4 samples.

Results

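The ascorbate transport and recycling transcripts are 9 human genes whose proteins carry vitamin C or its oxidized form across membranes, pass electrons from it, or bring it back to its reduced form: SLC23A2, SLC2A3, SLC2A8, SLC2A10, CYB561D2, CYB561A3, CYB5R3, GSTO1 and AIFM2. They were chosen by gene symbol, and every deposited entry with one of these symbols was taken. Of the 9 genes, 6 had at least 1 listed m6A site. They held 73 of the 218950 sites listed in any library, and 32 of these entered the tests, among 78509 tested sites in all. N6-methyladenosine (m6A), a methyl mark on adenosine in RNA, had been measured by GLORI, in which glyoxal and nitrite turn unmethylated adenosine into a base read as G, whereas m6A keeps being read as A. The percent of A among the A plus G reads of a site is its m6A level. The RNA came from wild-type HEK293T cells, an established human embryonic kidney line. There were 2 control libraries and 2 libraries of cells treated with ascorbic acid for 36 h. For all 4 libraries, controls included, seeding for 24 h and fresh medium every 6 h are given. The dose was not given in the sources used here, and the labels do not say whether the libraries of a group came from separate cultures; p-values thus cover only the spread between these 4 samples.

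Ascorbate enters cells in its reduced form through sodium-coupled transporters, and as dehydroascorbate, its oxidized form, through some facilitative sugar transporters. Inside the cell it gives electrons to enzymes and to cytochrome b561 proteins, and it is restored by reductases that draw on NADH, NADPH or glutathione. It also keeps iron reduced in the 2-oxoglutarate-dependent dioxygenases, a family that includes the m6A demethylases FTO and ALKBH5. In messenger RNA, m6A is placed mainly by the METTL3 and METTL14 complex, often near the stop codon and in the 3′ untranslated region.

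The deposited lists held 132989 and 144171 sites in control 1 and control 2, and 135205 and 143518 in ascorbic acid 1 and 2. Every listed entry had a level of 10% or more, at least 5 reads of A and at least 15 of A and G together. A site was tested where all 4 libraries listed it with at least 20 A plus G reads. Over the 32 tested sites of the ascorbate transcripts, a site had between 36 and 2678 reads in a library. Control 2 stood apart in conversion: its deposited unconverted share was 3.54% to 4.39% in the 6 listed genes, above the 2.16% to 3.24% of the other 3 libraries. Among markers of the HEK293 lineage, EYA1, NEFM, NEFL and WT1 had listed sites and PAX2 and LHX1 did not, and of 7 markers of other cell types only COL1A1 did.

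With ascorbic acid, m6A fell at 14 of the 32 tested sites and rose at none. Across all tested sites 25.7% fell and 0.219% rose, by edgeR (quasi-likelihood test of A against G reads) with Benjamini-Hochberg adjustment over all 78509 sites and a threshold of 0.05. At an unadjusted p of 0.05, 18 of the 32 were lower and 0 higher, against 34.7% and 0.571% of all tested sites. The 14 falls lay in SLC2A8, CYB561D2, CYB561A3, CYB5R3 and SLC23A2, with differences in mean level from -2.68 to -48.8 percentage points. Both ascorbic acid libraries were below both control libraries at 24 of the 32 sites, against 55.4% of all tested sites, and the reverse occurred at 0, against 4.22%. The median difference was -7.08 points over the 32 sites and -4.89 over all sites. The ascorbate transcripts were read more deeply, with a median of 221 reads per site and library against 104.5 over all tested sites, and 24 of the 32 lay above that series median. A deeper site can pass the test at a smaller difference, so the larger share of calls was not separated from depth. With limma on log2 odds 7 of the 32 sites fell (13.3% of all sites), and 6 did (11.9%) when the unconverted share was also subtracted from every site.

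**Figure D1:**
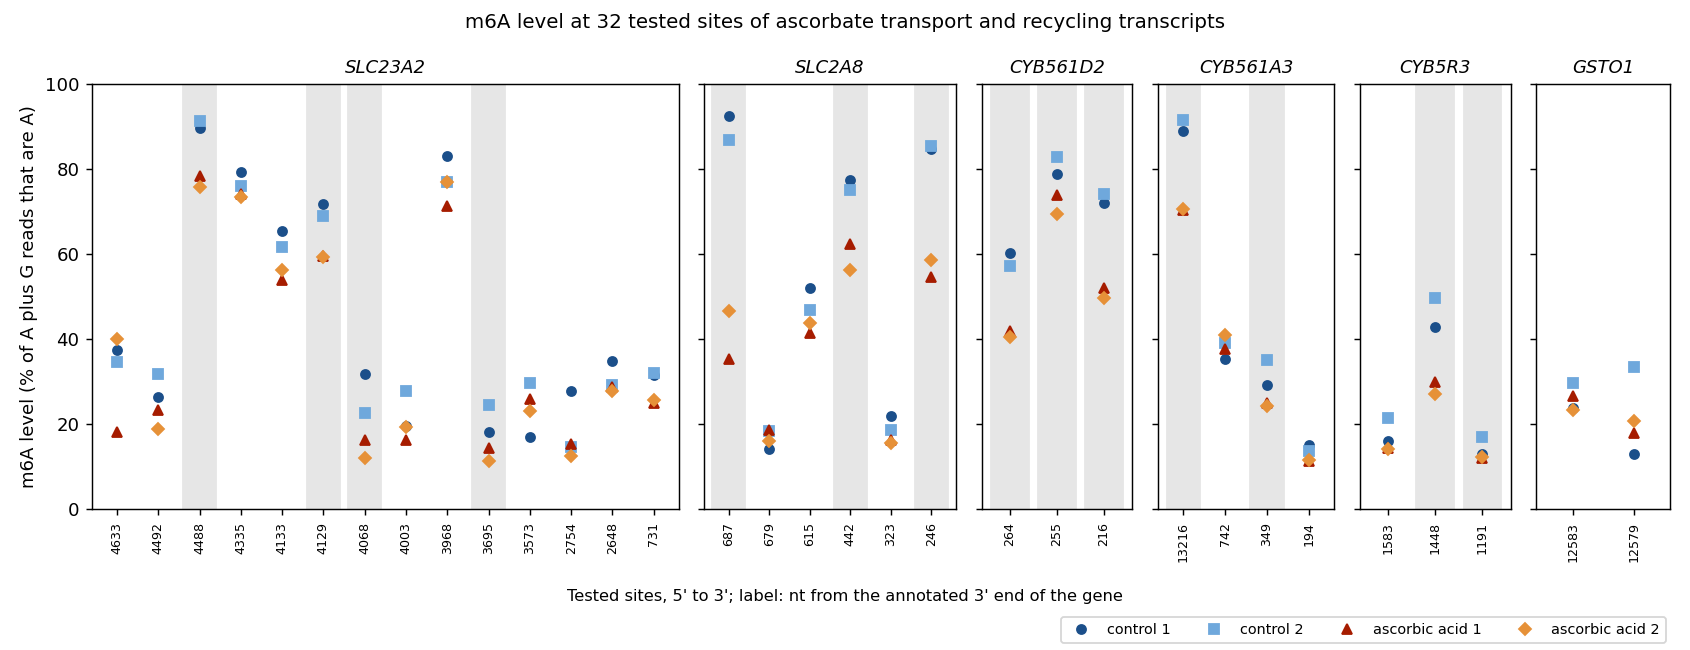
Each column is 1 tested site, ordered 5′ to 3′ within its gene, with the m6A level in percent on the vertical axis and the distance in nt from the annotated 3′ end of the gene below it. The 4 symbols are the 4 libraries and grey bands mark the 14 sites that fell; the deepest drop is the SLC2A8 site 687 nt from the 3′ end, at 92.5% and 86.9% in control, then 35.2% and 46.5% with ascorbic acid.

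SLC23A2, also called SVCT2, is the sodium-coupled transporter that brings reduced ascorbate into most cell types. It lies on the minus strand of chromosome 20 (GRCh38, 4852358 to 5010313). It had the most listed sites, 29, of which 14 were tested, all between 731 and 4633 nt from the annotated 3′ end of the gene. No transcript annotation was used, so exon and untranslated region are not assigned. With ascorbic acid 4 of the 14 sites fell and 10 did not pass the test. Summed over the 14 sites, the level was 49.5% and 47.9% in control, then 42.2% and 41.4% with ascorbic acid. The groups did not overlap, and the mean went from 48.7% ± 1.14 to 41.8% ± 0.589 (SD, n = 2 each; log2 odds -0.40, SE 0.08, edgeR adjusted p = 0.000431 over 10782 genes).

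The SLC23A2 site at position 4856846 was the most methylated of the tested sites of this gene. Its level was 89.7% and 91.2% in control, then 78.2% and 75.6% with ascorbic acid, from 184 to 217 reads. It fell by 13.5 points (log2 odds -1.51, SE 0.28, edgeR adjusted p = 4.15e-05). Another tested site, 4856850, lies 4 nt away and read 26.4% and 31.8% in control, then 23.3% and 18.8% with ascorbic acid. That site, named here after its values were seen, did not pass (edgeR adjusted p = 0.0587), although its groups did not overlap, and it passed without control 1 and among sites of at least 50 reads (0.0486 for both). The 3 other falls were smaller or rested on lower levels. Position 4856487 read 71.7% and 68.8%, then 59.5% and 59.3% (edgeR adjusted p = 0.0108). Position 4856426 read 31.8% and 22.6%, then 16.3% and 12.1% (0.0111), and position 4856053 read 18.2% and 24.5%, then 14.4% and 11.2% (0.00651).

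These 3 SLC23A2 calls were not kept under every setting, although the sign was. Over all settings the log2 odds lay between -1.51 and -0.84 at 4856426, and between -0.79 and -0.59 at 4856487. At 4856053 it lay between -1.15 and -0.61, and it moved from -0.92 to -0.61 without control 2. Each of the 3 lost its call in some fits that left out a library. Such a fit leaves 1 library in a group, so a lost call there does not single out a library. With DESeq2 none of the 3 passed (adjusted p = 0.164, 0.218 and 0.126 in the order 4856426, 4856487, 4856053). Nor did any of them with limma (0.0971, 0.113 and 0.132) or with limma and the unconverted share subtracted (0.102, 0.147 and 0.101). The site with the most reads, 4855006, read 34.8% and 29.1% in control, then 28.7% and 27.8% with ascorbic acid, and did not pass (adjusted p = 0.384). One further site, 4857102, was listed in all libraries but had 17 reads in control 2 and was not tested. It held the highest level of the gene, 97.7% (exact 95% binomial interval 87.7 to 99.9) and 94.1% (71.3 to 99.9) in control, then 85.7% (71.5 to 94.6) and 78.8% (61.1 to 91.0) with ascorbic acid. It too was picked out after its values had been seen. The intervals cover counting error only.

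SLC2A8, or GLUT8, is a facilitative sugar transporter of intracellular membranes that has been shown to carry dehydroascorbate. It lies on the plus strand of chromosome 9 (127397169 to 127407898), and its 6 tested sites sat between 246 and 687 nt from the annotated 3′ end. Here 3 of the 6 sites fell, and they were the 3 with the highest control levels. The summed level was 60.7% and 59.2% in control, then 44.1% and 43.0% with ascorbic acid, without overlap. The mean went from 59.9% ± 1.01 to 43.6% ± 0.715 (SD, n = 2 each; log2 odds -0.95, SE 0.10, edgeR adjusted p = 8.30e-08).

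Position 127407211 of SLC2A8 showed the largest difference of the 32 sites. Control libraries read 92.5% (123 of 133 reads, exact 95% interval 86.6 to 96.3) and 86.9% (119 of 137, 80.0 to 92.0). Ascorbic acid libraries read 35.2% (57 of 162, 27.9 to 43.1) and 46.5% (79 of 170, 38.8 to 54.3). No interval of one group reached the other group, and the mean went from 89.7% ± 3.97 to 40.8% ± 7.98 (log2 odds -3.63, SE 0.30, edgeR adjusted p = 2.80e-13). The tested site 8 nt downstream, 127407219, read 14.1% and 18.3% in control, then 18.5% and 16.0% with ascorbic acid. Its groups overlapped and it did not pass (adjusted p = 0.873); it was picked out after its values had been seen.

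Another SLC2A8 site, 127407652, read 84.7% and 85.2% in control, then 54.7% and 58.4% with ascorbic acid, from 59 to 77 reads. It fell by 28.4 points (log2 odds -2.11, SE 0.39, edgeR adjusted p = 3.77e-05). The site with the most reads, 127407456, went from 77.3% and 74.9% to 62.2% and 56.3% (log2 odds -1.13, SE 0.15, adjusted p = 7.29e-08). Over all settings the log2 odds lay between -4.13 and -3.24 at 127407211, -2.22 and -1.89 at 127407652, and -1.30 and -0.94 at 127407456. For the gene it lay between -1.13 and -0.91. With limma and the unconverted share subtracted, 127407456 missed the threshold (adjusted p = 0.0592). Position 127407575, at 21.9% and 18.7% in control, then 16.3% and 15.5% with ascorbic acid, did not pass (adjusted p = 0.237).

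CYB561D2 and CYB561A3 belong to the cytochrome b561 family, membrane proteins that take electrons from ascorbate on one side of a membrane and pass them to an acceptor such as ferric iron on the other. CYB561D2 lies on the plus strand of chromosome 3 (50350862 to 50354069). Its 3 tested sites lie between 216 and 264 nt from the annotated 3′ end, and all 3 fell. The summed level was the highest of the 6 genes, 70.4% and 71.7% in control, then 55.8% and 53.1% with ascorbic acid. Its mean went from 71.0% ± 0.909 to 54.5% ± 1.87 (SD, n = 2 each; log2 odds -1.04, SE 0.11, edgeR adjusted p = 6.00e-08).

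Within CYB561D2 the sites 50353805 and 50353814 are 9 nt apart and 50353853 follows 39 nt later, so single reads can cover more than 1 of them and they are not independent. Position 50353853 read 71.9% and 74.1% in control, then 52.0% and 49.7% with ascorbic acid (log2 odds -1.40, SE 0.16, edgeR adjusted p = 1.45e-09). Position 50353805 read 60.2% and 57.2%, then 41.8% and 40.5% (adjusted p = 2.20e-06). The groups of both sites were far apart compared with their replicate spread. With limma on log2 odds 50353805 kept its call (adjusted p = 0.0440). With limma and the unconverted share also subtracted, it missed the threshold (adjusted p = 0.0524). Position 50353814 read 78.8% and 82.7%, then 73.8% and 69.4% (adjusted p = 0.00154), and no longer passed without control 2 (0.0875) or without ascorbic acid 2 (0.119), with DESeq2 (0.0731), with limma (0.139) or with the unconverted share subtracted (0.170). The span of the long noncoding RNA LOC127898564 covers all 3 sites in the gene table, which gives no strand; the sites are named CYB561D2 by the authors.

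CYB561A3 is a lysosomal member of the same family. It lies on the minus strand of chromosome 11 (61348745 to 61362283) and had 4 tested sites, of which 2 fell. One of them lies near the 5′ end of the gene, and the reference letters around it could be read from the RefSeq table of start regions (GRCh38.p14), which covers 7 of the 73 listed sites. The tested site is shown first. The second sequence, further upstream, was listed only in ascorbic acid 2, at 26.7% of 30 reads (exact 95% interval 12.3 to 45.9), and is shown because it carries the same 5 letters. The capital marks the methylated adenosine, on the minus strand.
CYB561A3 chr11:61361951-61361971: tggtctccggActtcacttcc
CYB561A3 chr11:61362036-61362056: ctgacttcggActtggagaag
Both adenosines stand in GGACT, a sequence often found at m6A sites. Of the 8397 listed sites that fall in such start regions of any gene, all lie on an adenosine, 44.1% are followed by C and 6.59% stand in GGACT. Among the 7 sites of the ascorbate transcripts there, 5 are followed by C and 2 stand in GGACT. Anywhere in their length and on either strand, 44.2% of all 35116 start regions of 300 bases hold GGACT. That is a share of regions and not of sites, so it is no background for the 6.59%.

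The first of these, position 61361961, is 322 nt from the annotated 5′ end of CYB561A3. It read 88.8% (95 of 107 reads) and 91.5% (162 of 177) in control, then 70.3% (97 of 138) and 70.5% (110 of 156) with ascorbic acid. It fell by 19.8 points, and the groups were separated by more than their spread (log2 odds -1.99, SE 0.31, edgeR adjusted p = 2.33e-06). The other 3 tested sites lie 194 to 742 nt from the annotated 3′ end, where the gene table also places TKFC. Position 61349094 read 29.1% and 35.1% in control, then 25% and 24.3% with ascorbic acid (adjusted p = 0.0246). That call was lost without control 2 (log2 odds -0.33 in place of -0.54, adjusted p = 0.346), without ascorbic acid 1 (0.119) and without ascorbic acid 2 (0.191), and with DESeq2 (0.30), limma (0.231) and the unconverted share subtracted (0.215).

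Position 61349487, the CYB561A3 site with the most reads, had overlapping groups, 35.3% and 39.0% in control, then 37.6% and 40.9% with ascorbic acid (log2 odds 0.12, edgeR adjusted p = 0.619). Position 61348939 read 15.1% and 13.8%, then 11.3% and 11.6% (adjusted p = 0.261). Summed over the 4 sites the gene read 33.6% and 39.1% in control, then 30.8% and 32.3% with ascorbic acid (36.3% ± 3.88 to 31.5% ± 1.07, SD, n = 2 each; log2 odds -0.32, SE 0.11, edgeR adjusted p = 0.0238). This gene call depended on the control library used: the log2 odds was -0.13 without control 2 (adjusted p = 0.368) and -0.48 without control 1 (7.41e-05). It was also lost without ascorbic acid 1 (adjusted p = 0.151), with DESeq2 (0.143), with limma on log2 odds (0.172) and with the unconverted share subtracted (0.139). With its deepest site alone the sign turned, to 0.12 (adjusted p = 0.576).

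CYB5R3 is the NADH-cytochrome b5 reductase, which with cytochrome b5 returns the ascorbate radical to ascorbate. It lies on the minus strand of chromosome 22 (42617840 to 42649392). It was the most deeply read of the 6 genes and had the lowest mean level of the 6 in both groups, with 19.1% and 22.6% in control, then 15.8% and 15.5% with ascorbic acid. The mean went from 20.8% ± 2.54 to 15.7% ± 0.184 (SD, n = 2 each; log2 odds -0.50, SE 0.10, edgeR adjusted p = 0.000185). Of its 3 tested sites, 1191 to 1583 nt from the annotated 3′ end, 2 fell.

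The larger CYB5R3 fall was at position 42619288, which read 42.9% and 49.6% in control, then 29.8% and 27.0% with ascorbic acid (log2 odds -1.10, SE 0.14, edgeR adjusted p = 2.68e-08). With limma on log2 odds this call was lost (adjusted p = 0.0503). It has another listed site 6 nt away, found only in control 2 at 10.5%. Position 42619031 had 2171 to 2678 reads and read 12.9% and 16.9%, then 12.1% and 12.3% (adjusted p = 0.0399). The higher value was that of control 2, whose unconverted share in this gene was 3.78% against 2.23% to 2.68% in the other libraries. A link between this share and the level was not tested. Without control 2 its log2 odds went from -0.32 to -0.09 (adjusted p = 0.696), and without control 1 to -0.55 (0.000986). It also missed the threshold without ascorbic acid 1 (0.297) and without ascorbic acid 2 (0.258), and with DESeq2 (0.292), limma (0.462) and the unconverted share subtracted (0.414). Position 42619423 read 16.0% and 21.4%, then 14.3% and 14.1%, and did not pass in the main edgeR fit (adjusted p = 0.0561). It passed with the replicate block (0.0281) and among sites of at least 50 reads (0.0429). It also passed with sites 6 nt from another left out, and without control 1, where 1 control library was left. Over all settings its log2 odds lay between -0.72 and -0.20.

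GSTO1 is a glutathione transferase of the omega class that reduces dehydroascorbate with glutathione. It lies on the plus strand of chromosome 10 (104254173 to 104267455), and both tested sites, 104254872 and 104254876, lie near the 5′ end of the gene span, 699 and 703 nt inside it. Relative to the start given for GSTO1 in the RefSeq table of start regions, both sites lie upstream, at -20 and -16 nt. The lncRNA LOC124902497 spans them too. Their letters, from the same RefSeq table, are shown because they are the only tested sites of this gene, with the capital at the adenosine.
GSTO1 chr10:104254862-104254882: aggacgcgccAcctacttcct
GSTO1 chr10:104254866-104254886: cgcgccacctActtcctgaat
The sites stand 4 nt apart, in CCACC and CTACT, and share reads. Neither passed the test. Position 104254872 read 23.8% and 29.7% in control, then 26.5% and 23.2% with ascorbic acid (edgeR adjusted p = 0.880). Position 104254876 read 12.9% (9 of 70 reads) and 33.3% (28 of 84) in control, then 17.9% (15 of 84) and 20.8% (22 of 106) with ascorbic acid (adjusted p = 0.549). The 2 control libraries thus lay on either side of both ascorbic acid libraries.

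Summed over both sites, GSTO1 read 17.0% and 32.2% in control, then 21.1% and 21.6% with ascorbic acid (24.6% ± 10.8 to 21.3% ± 0.391; log2 odds -0.29, SE 0.34, edgeR adjusted p = 0.481). It was the gene with the widest control spread. Control 2, the higher library, had an unconverted share of 3.87% there against 2.16% in control 1, and a link to the spread was not tested. Without control 1 the remaining 3 libraries gave a log2 odds of -0.81 (adjusted p = 0.0366), and without control 2 the sign turned, to 0.41 (adjusted p = 0.420). The gene's summed depth, 112 to 162 reads, was the lowest of the 6.

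The other 3 members had no listed site in any library and were not analysed here: SLC2A3 (GLUT3) and SLC2A10 (GLUT10), facilitative sugar transporters, and AIFM2, an NAD(P)H-dependent oxidoreductase that reduces ubiquinone. Absence from the lists gives no m6A level and no transcript level for them.

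Summed per transcript, 5 of the 6 genes fell and 0 rose, against 56.7% and 0.297% of all 10782 genes tested. Among genes with at least 3 tested sites, as 5 of these have, 68.2% fell. In all 5 that fell, both ascorbic acid libraries were below both controls, which held for 76.7% of all genes. The median log2 odds was -0.45 over the 6 genes and -0.39 over all genes, so in size the group lay near the middle of the series. From high to low the control order was CYB561D2 (71.0%), SLC2A8 (59.9%), SLC23A2 (48.7%), CYB561A3 (36.3%), GSTO1 (24.6%) and CYB5R3 (20.8%). With ascorbic acid the order of the means was unchanged, at 54.5%, 43.6%, 41.8%, 31.5%, 21.3% and 15.7%. The control libraries of GSTO1 enclosed those of CYB5R3, so these neighbours were not separated there, while in control the libraries of the other neighbours did not overlap. SLC2A8 and SLC23A2 lay closer together with ascorbic acid than in control; the change in this gap was not tested.

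**Figure D2:**
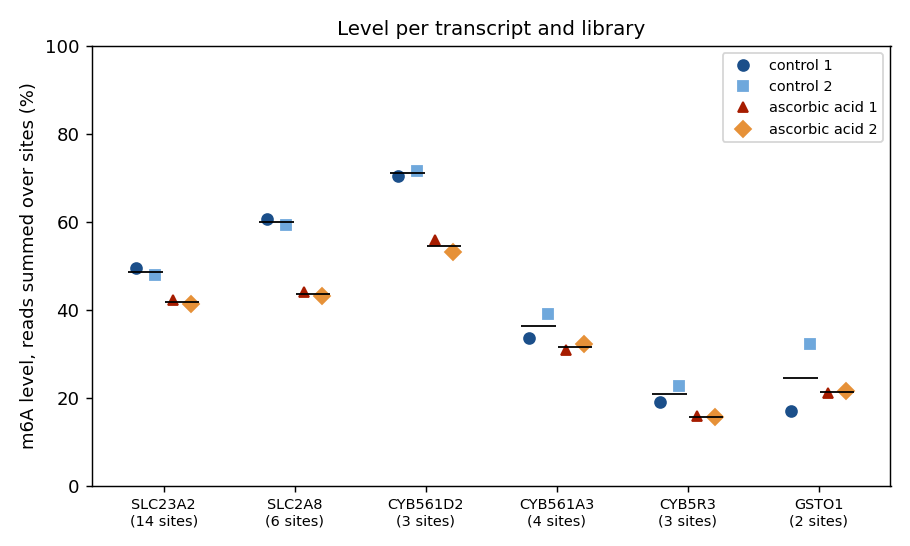
The m6A level of each gene, in percent of A plus G reads summed over its tested sites, is plotted for the 4 libraries, with black lines at the group means. The ascorbic acid symbols lie below both control symbols in 5 genes and between the control symbols in GSTO1.

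The larger falls came at sites of higher control level. Part of this was fixed in advance, because tested sites stayed at 10% or more in every library. A site low in control thus had less room to fall. The classes also use the same control levels as the differences. Of the 12 sites at 50% or more in control 9 fell, with a median difference of -15.2 points and a median log2 odds of -1.07. Across all tested sites in that class 44.5% fell, with medians of -9.13 points and -0.83. Of the 20 sites under 50%, 5 fell, against 12.9% of all tested sites in that class, with a median of -5.12 points against -3.10. SLC2A8, CYB561D2, CYB561A3 and SLC23A2 each had sites of both kinds or high sites only, whereas CYB5R3 and GSTO1 had no site at 50% or more. Sites of one gene share reads and RNA, so the 32 points are not independent.

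**Figure D3:**
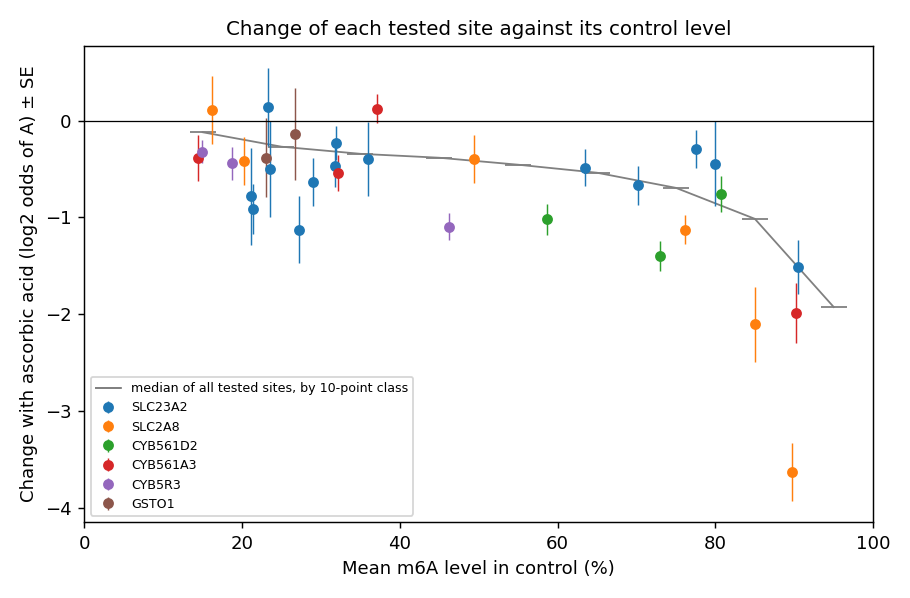
Each point is 1 of the 32 tested sites, with the mean control level in percent on the horizontal axis and the log2 odds change with ascorbic acid on the vertical axis; bars are ± 1 SE and colours are genes. The grey line joins the medians of all 78509 tested sites by 10-point class of control level, and the SLC2A8 site at 89.7% in control, with -3.63, lies furthest below it.

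Of the 32 tested sites, 13 lay within 1000 nt of the annotated 3′ end of their gene, 29 within 5000 nt, and 3 further away, namely the 5′ site of CYB561A3 and both sites of GSTO1. Listed in fewer than 4 libraries were 40 of the 73 sites. These were weakly methylated: 55 of their 68 values were under 15%, the median was 11.7% and the highest 26.7%. Control 2 alone listed 12 of the 40, control 1 alone 2, ascorbic acid 1 alone 6 and ascorbic acid 2 alone 2. Listed in both controls and in neither ascorbic acid library were 4, and the opposite was true of 1. Since the lists end at 10%, absence from a list is not a level of 0. Control 2, which listed the most on its own, had the highest unconverted share in every one of these genes. It also had the most A plus G reads over its whole list, 28562744 against 22592887 in control 1 and 25146378 and 26816350 in ascorbic acid 1 and 2. Over the 32 tested sites it was not the deepest. The A plus G reads there were 9095 and 9714 in control 1 and 2, then 9853 and 11145 in ascorbic acid 1 and 2. Neither conversion nor depth was tested as a cause. One of the 40 lies near the 5′ end of CYB5R3 (position 42649340) and read 21.4%, 25.4% and 19.8% in control 2, ascorbic acid 1 and ascorbic acid 2; it was picked out after its values had been seen.

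The amount of these transcripts, as far as the lists give it, did not pass a test of change. The deposited gene coverage, a signal of read depth per gene, was scaled by the median ratio between libraries. None of the 6 genes was called by limma, against 0.0422% of 11848 genes that fell and 0.253% that rose, and none had an unadjusted p under 0.05. SLC23A2 read 137, 154, 137 and 138 in control 1, control 2, ascorbic acid 1 and ascorbic acid 2, a log2 change of -0.08 (95% interval -0.25 to 0.09). SLC2A8 read 251, 294, 280 and 294, a log2 change of 0.08 (-0.12 to 0.29). The groups overlapped in all 6 genes.

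For CYB561D2 the log2 change in coverage was -0.08 (95% interval -0.24 to 0.08) and for CYB561A3 it was -0.01 (-0.22 to 0.20). For CYB5R3, the gene with the highest coverage, it was 0.10 (-0.09 to 0.29), and for GSTO1 it was 0.03 (-0.14 to 0.20). Each interval leaves room for changes up to its own limits, which differ between a fall and a rise. In bulk RNA, fewer cells with a transcript and less of it per cell cannot be told apart.

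**Figure D4:**
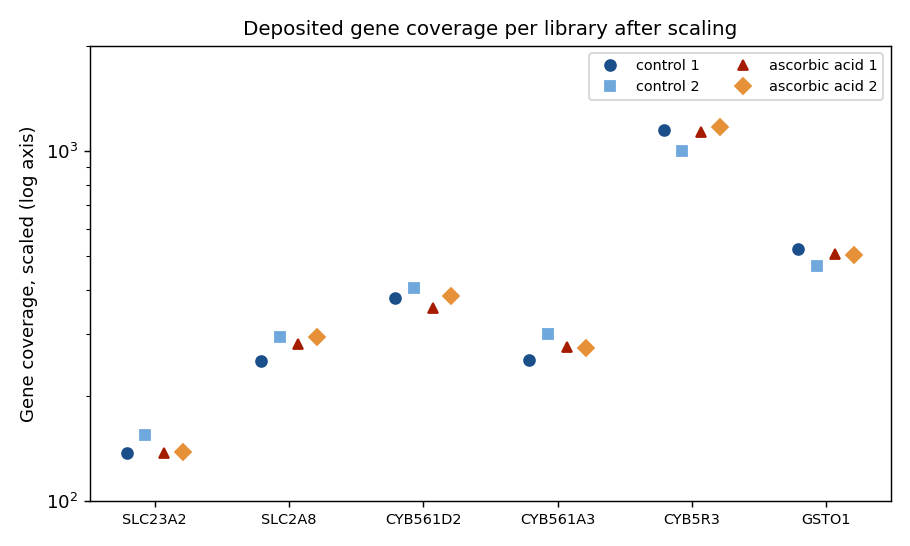
Gene coverage after scaling is shown per library on a log axis for the 6 genes. In each gene the 4 symbols lie close together and the groups overlap, from about 137 to 154 in SLC23A2 to 1004 to 1169 in CYB5R3.

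A wider list of 28 genes of ascorbate and thiol redox handling, without the 9 above, gave 13 genes with a tested site. Of these 8 fell, 0 rose and 5 did not pass, with a median log2 odds of -0.47 against -0.39 over all genes. The 8 of 13 lie near the 56.7% of all genes that fell. P4HB, the protein disulfide isomerase that is also a subunit of the ascorbate-using collagen prolyl hydroxylase, went from 46.2% ± 1.14 to 36.0% ± 0.429 (SD, n = 2 each; 12 sites). CYB5R1, a reductase related to CYB5R3, went from 29.9% ± 1.68 to 12.8% ± 1.21 at 1 site. CYB5B, the outer mitochondrial membrane cytochrome b5, fell from 32.0% ± 0.855 to 27.1% ± 0.727, a call lost with limma (adjusted p = 0.0549) and with its deepest site (0.0748).

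Among the thiol reductases, TXNRD1, the cytosolic thioredoxin reductase, fell from 36.2% ± 0.564 to 29.8% ± 0.893. GSR, which reduces oxidized glutathione, fell from 23.2% ± 0.0194 to 13.9% ± 0.490. GSTO2, the second omega glutathione transferase, fell from 49.5% ± 3.08 to 24.4% ± 13.7 at 1 site, and its call was lost without ascorbic acid 2 (log2 odds -0.90 in place of -1.70, edgeR adjusted p = 0.200), with DESeq2 (0.0804), with limma (0.0782) and with the unconverted share subtracted (0.0933). SLC2A1 (GLUT1), the main dehydroascorbate carrier of many cells, read 28.8% and 25.7% in control, then 28.8% and 26.2% with ascorbic acid over 8 sites and did not pass (adjusted p = 0.879). It was picked out after its values had been seen.

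Summed over all 32 sites, the level was 38.2% and 42.9% in control, then 32.3% and 31.7% with ascorbic acid. Among the 7231 other genes with at least 3 tested sites, DHX33, CCNL1 and ZNF395 had the 4 library levels nearest to these, at Euclidean distances of 1.29, 1.31 and 1.48 points over the 4 libraries. This sum is weighted toward CYB5R3, which holds the most reads. The median over the 32 sites, which weights them equally, was 35.0% and 34.8% in control, then 27.6% and 27.4% with ascorbic acid.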

How the data were processed

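GLORI m6A sites of 2 control and 2 ascorbic acid libraries were compared. Per the submitters' processing notes, Trimmomatic 0.39 and STAR were used with hg38 (GRCh38); the site caller was not given in the sources used here. The whole A and A plus G read counts per site were deposited by the authors without scaling. The level per site, A reads divided by A plus G reads, is a fraction deposited by the authors and was recomputed from the counts within 5e-06. The unconverted share is 100% minus the conversion rate, a fraction deposited by the authors per gene. Gene coverage is a signal deposited by the authors without a stated unit. Each p-value deposited by the authors tests a site against background and was used only to describe the lists (highest adjusted value 0.00401 to 0.00404).

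A site needed 20 or more reads in every library and was tested with edgeR 4.0.16 (quasi-likelihood, A and G reads, a term per library and the treatment effect on the odds of A); reads were also summed per gene over its tested sites. A read over several sites counts at each. Coverage, scaled by median ratio, was tested with limma 3.58.1 on log2(value + 0.5). Every fit with the unconverted share subtracted used limma on log2 odds and not edgeR, so it changed the test as well. P-values are two-sided and adjusted by Benjamini-Hochberg over all sites or genes. Per-library intervals are exact binomial. Other tools were matplotlib 3.10.9, pandas 2.3.3, numpy 2.4.6, scipy 1.17.1, DESeq2 1.42.0, R 4.3.3 and Python 3.11.15. The tests were tried on simulated data. Gene spans and start-region letters come from RefSeq (GRCh38.p14).

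The members, the wider list, the markers and the tests were chosen with earlier results of these data known. All 9 members were reported; 1 lineage marker is not reported here. Of the sites of each, at most 4 with the smallest p, the site of highest control level and the deepest site could be named, of the wider list the 6 genes with the smallest p, and the 3 genes nearest in level.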

Additional observations from a re-analysis of the deposited data

How the results depend on the processing

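The 14 falls among 32 sites became 8 with DESeq2 (12.3% of all tested sites fell), 7 with limma on log2 odds (13.3%) and 6 with limma and the unconverted share subtracted (11.9%). They became 16 of 29 with at least 50 reads in every library (31.6%). Leaving out 1 library at a time left 1 library in a group, so the number of falls is not given for those fits. The log2 odds of CYB5R3 position 42619031 went from -0.32 to -0.09 without control 2. The 5 falls among 6 genes became 3 with limma (38.1% of all genes) and 3 with the unconverted share subtracted (38.2%). The deepest site of each gene also gave 3 (34.6%), and DESeq2 gave 4 (36.2%). Without control 2, the log2 odds of CYB561A3 went from -0.32 to -0.13 and that of GSTO1 from -0.29 to 0.41. CYB561A3 lost its call with DESeq2 (adjusted p = 0.143), with limma (0.172) and with the unconverted share subtracted (0.139). With limma the CYB5R3 call was lost (adjusted p = 0.0572), and SLC23A2 lost its call with the unconverted share subtracted (0.0546) and with its deepest site (0.341). The CYB561A3 level was reversed with its deepest site (log2 odds 0.12, adjusted p = 0.576). No rise was called among the sites or genes under any of these settings, and no coverage call was made under any setting. The replicate number as a block gave 15 falls among sites (26.6% of all sites), 5 among genes (57.1% of all genes) and 0 coverage calls. Same-numbered libraries did not deviate together (correlation -0.0053 for sites, -0.0042 for genes and -0.163 for coverage), so the numbers were not taken as pairs; for coverage the crossed pairing, chosen after seeing the data, gave 0 calls. Over all settings, 306 of the site results kept their side of the threshold, 36 lost it and 6 gained it; for genes 62 kept it, 8 lost it, 1 gained it, and the reversed CYB561A3 value lost it as well.

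Sites under 20 reads or under 10% in any library were not compared, so losses to below 10% are not among the falls. At depths like those of GSTO1, differences of several points were not detectable. Removal of duplicate reads was not given in the sources used here, and the causes of these changes between settings were not tested.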
